A study of Drosophila melanogaster with 12 samples.

Results

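The 40 genes described here drive DNA replication and the steps of the cell cycle, and were taken by name from the authors' tables of eye disc expression. All 40 were found among 15904 gene rows, 38 under the listed name and 2 under another name of the same gene, wee as Wee1 and fzr as rap. By role they comprised 17 replication genes, 5 genes of the G1/S transition, 14 genes of the G2/M transition and mitotic exit, and 4 spindle checkpoint genes. Each had a row of its own, and all 40 were tested in each of the 6 pairs of groups at 1 FPKM or more in every group.

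RNA was sequenced from the eye discs of Drosophila melanogaster larvae in the third instar, at the wandering stage, in 4 groups of 3 samples with 30 pairs of discs per preparation. The control was w1118 with sev-GAL4, UAS-GFP and the allele dco2, carried over a normal chromosome. The Ras group had sev-GAL4, UAS-GFP and UAS-RasV12, a constitutively active Ras, again with dco2. The RNAi group combined sev-GAL4, UAS-GFP and UAS-RasV12 with UAS-hsrω RNAi, directed against the long noncoding RNA hsrω, and the EP3037 group combined them with EP3037, an insertion labelled as raising hsrω. All groups therefore shared w1118, sev-GAL4 and UAS-GFP. The labels list dco2 for the control and Ras groups and not for the RNAi and EP3037 groups, so any difference that goes with dco2 cannot be told apart from one that goes with hsrω. The driver acts in cells that express sevenless, while RNA came from the whole disc, so cells in which the driver does not act contributed to every value.

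Levels are the authors' FPKM, fragment counts scaled to transcript length and library size, with 1 pooled value per gene and group. No SD, n or value per sample stands behind a level, and read depth is unknown. Changes are the log2 ratio of the later-named group over the earlier-named one, and a gene was called, and is said to have risen or fallen, when Cuffdiff's q-value in the authors' deposited tables was at or under 0.05. The 95% intervals of a log2 change were derived from its deposited p-value. Nothing in the labels ties the replicates to separate crosses, so a p-value here covers the sequenced samples alone, and differences among them may be technical. With pooled values, how far a p-value or its interval reflects a gene's own spread among samples cannot be told. In the RNAi group 1 sample was listed as more than 1 input. How this entered the p-values of pairs with that group is not known.

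All 9 eye disc markers were at 1 FPKM or more in every group, and their summed level was 431 FPKM in the control, 447 with Ras, 527 with Ras and RNAi and 441 with Ras and EP3037. Of these markers sev, whose enhancer drives the transgenes, was called higher from the control to the RNAi group (22.6 to 36.8 FPKM, log2 change 0.70, q = 0.0359 in the authors' deposited table). Optix, a transcription factor gene of the eye, was called lower from the RNAi to the EP3037 group (17.5 to 9.95 FPKM, log2 change -0.82, q = 0.0140 in the authors' deposited table). These are the pairs in which Caf1-180, given further on, was called, and the part of the disc's cell makeup in that was not tested. The 4 markers of adult photoreceptors summed to between 0.712 and 1.08 FPKM, with Rh3 at 0 in the control and Ras groups. Hsromega, the hsrω gene, had 543 FPKM in the control, 389 with Ras, 398 with Ras and RNAi and 606 with Ras and EP3037, so the pooled level was not lower with the RNAi construct than with Ras alone. Ras85D had 74.4, 121, 151 and 142 FPKM in these 4 groups. The median log2 change of all genes at 1 FPKM or more in both groups lay between -0.06 and 0.04 over the 6 pairs.

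Progress through the cell cycle is set by cyclin-dependent kinases, whose cyclin partners are made and destroyed in turn. Origins are licensed in G1 by loading of the Mcm helicase, S phase follows activation of E2F target genes, and entry into mitosis requires removal of inhibitory phosphates from Cdk1 by a Cdc25 phosphatase. In the eye disc, undifferentiated cells divide ahead of the morphogenetic furrow, arrest in G1 within it, and a subset divides once more behind it in the second mitotic wave.

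The levels of these genes differed little between the groups. The median gene spanned a log2 range of 0.24 over the 4 groups, a 1.18-fold distance from its lowest to its highest level, and 33 of 40 genes (82.5%) stayed within a log2 range of 0.5. Among all 8795 genes at 1 FPKM or more in every group the median range was 0.34 and 69.7% stayed within 0.5. Among the 6667 genes whose levels lay inside the members' own FPKM range the median was 0.30 and 78.6% stayed within 0.5. Median ranges were 0.27 for the replication genes, 0.26 for the G1/S genes, 0.25 for the G2/M genes and 0.15 for the checkpoint genes, none of which exceeded 0.17. Over all 6 pairs and 40 genes a single gene was called, Caf1-180, in 2 pairs.

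**Figure D1:**
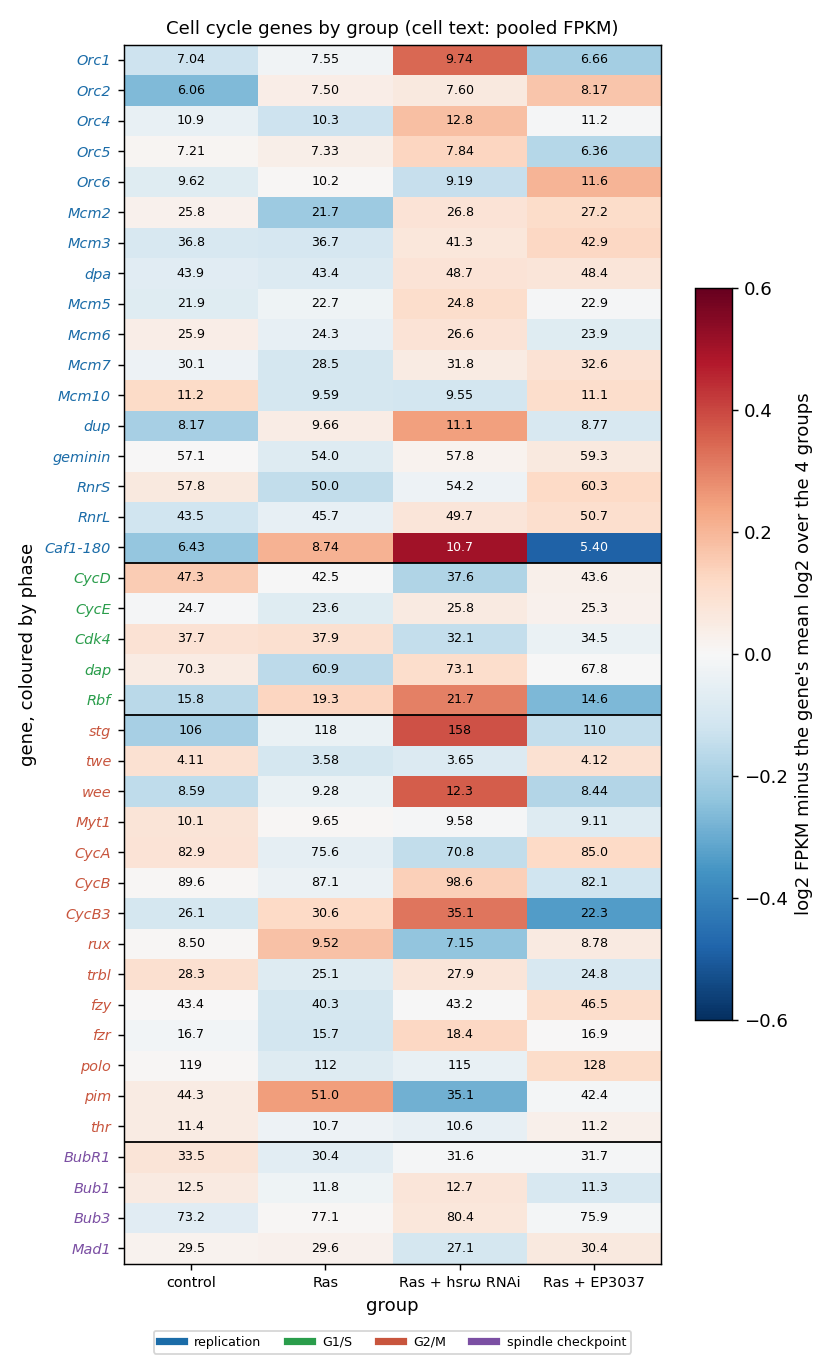
Pooled FPKM of the 40 genes (cell text) in the control, Ras, Ras + hsrω RNAi and Ras + EP3037 groups, with rows ordered by phase and colour giving the log2 level minus the gene's mean over the 4 groups. Most rows are pale; Caf1-180, CycB3, stg, Rbf, Orc1 and wee are darkest in the RNAi column, and Caf1-180 spans 5.40 to 10.7 FPKM.

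Origin licensing genes were among the lowest. Orc1, a subunit of the origin recognition complex that marks replication origins, stood at 7.04 FPKM in the control, at 7.55 with Ras, at 9.74 with Ras and RNAi and at 6.66 with Ras and EP3037. Orc2 was at 6.06, 7.50, 7.60 and 8.17 FPKM, given in that sequence of groups here and for every later gene. Orc4 was at 10.9, 10.3, 12.8 and 11.2 FPKM. Orc1 and Orc4 were thus highest with RNAi, while Orc2 was highest with EP3037. Orc5 was at 7.21, 7.33, 7.84 and 6.36 FPKM. Orc6 was at 9.62, 10.2, 9.19 and 11.6 FPKM. The 5 subunits, which belong to 1 complex, followed no common order of groups, and all 5 overlap another row of the tables.

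The loaded helicase ring was more abundant on this per-length scale. Mcm2 was at 25.8, 21.7, 26.8 and 27.2 FPKM. Mcm3 was at 36.8, 36.7, 41.3 and 42.9 FPKM. The Mcm4 subunit, dpa, was at 43.9, 43.4, 48.7 and 48.4 FPKM. These 3 subunits, and also Mcm5 and Mcm7 but not Mcm6, were lower in both the control and the Ras group than in the RNAi and EP3037 groups, by small margins. Mcm5 was at 21.9, 22.7, 24.8 and 22.9 FPKM. Mcm6 was at 25.9, 24.3, 26.6 and 23.9 FPKM. Mcm7 was at 30.1, 28.5, 31.8 and 32.6 FPKM. Of the 6 ring subunits, 4 were lowest in the Ras group, while Mcm5 was lowest in the control and Mcm6 in the EP3037 group. All 6 were higher with RNAi than with Ras alone, with log2 differences between 0.13 and 0.30, none of which passed the test. The smallest of their p-values, that of Mcm2, was 0.118 (q = 1.00) in the authors' deposited table.

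Regulators of licensing and the supply of nucleotides varied by similar amounts. Mcm10, a replication factor that joins the helicase as origins fire, was at 11.2, 9.59, 9.55 and 11.1 FPKM. The Cdt1 protein that loads the helicase, encoded by dup, was at 8.17, 9.66, 11.1 and 8.77 FPKM, and geminin, its inhibitor, was at 57.1, 54.0, 57.8 and 59.3 FPKM. The loader was highest in the RNAi group, and its inhibitor in the EP3037 group. RnrL, the large subunit of ribonucleotide reductase, was at 43.5, 45.7, 49.7 and 50.7 FPKM. RnrS, its small subunit, was at 57.8, 50.0, 54.2 and 60.3 FPKM, with log2 changes over the 6 pairs between -0.21 and 0.27. The lowest p-value of RnrS was 0.191 for the Ras and EP3037 groups, and q was 1.00 in all 6 of the authors' deposited tables. RnrL, unlike RnrS, was lowest in the control.

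Caf1-180 encodes the large subunit of chromatin assembly factor 1 (CAF-1), which deposits histones on newly replicated DNA. It lies on chromosome X from 8602137 to 8606304 of dm6, on the minus strand, and is a protein-coding gene with a transcript of 4043 nt that overlaps no other row. Its level was 6.43 FPKM in the control, 8.74 with Ras, 10.7 with Ras and RNAi and 5.40 with Ras and EP3037. The RNAi group was highest and the EP3037 group lowest, with the control close to the latter. It rose 1.67-fold from the control to the RNAi group, a log2 change of 0.74 with an interval of 0.35 to 1.13 (p = 2e-04, q = 0.0240 in the authors' deposited table). From the RNAi to the EP3037 group it fell by 0.99 on the log2 scale, with an interval of -1.47 to -0.51 (p = 5e-05, q = 0.00789 in the authors' deposited table, the smallest values these tables hold). From the Ras to the EP3037 group its log2 change was -0.69 (p = 0.0033, q = 0.179 in the authors' deposited table), and from the control to the Ras group it was 0.44 (p = 0.0568, q = 0.842 in the authors' deposited table). Neither passed the test, nor did the changes from Ras to RNAi (0.30) and from control to EP3037 (-0.25). When a trend of log2 change over transcript length was subtracted the changes were 0.65 and -0.87, and neither passed the test (q = 0.117 and q = 0.0538). The second change has the smallest deposited p, and a spread derived from that p is an upper value. Such upper values can raise both q-values, so this retest cannot show that either call is lost. The RNA came from whole discs, so fewer cells of a type and less RNA per cell cannot be told apart here or in any result that follows.

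The other CAF-1 subunits did not follow this order. Caf1-105 was at 8.99, 9.30, 9.96 and 9.42 FPKM, with log2 changes over the 6 pairs between -0.08 and 0.15. Caf1, a histone-binding subunit shared with other chromatin complexes, was at 132 FPKM in the control, 130 with Ras and 135 with Ras and RNAi, and its log2 change from the last of these to the EP3037 group was 0.13. Both had every q at 1.00 in the authors' deposited tables, and Caf1 was highest in the EP3037 group, where Caf1-180 was lowest.

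**Figure D2:**
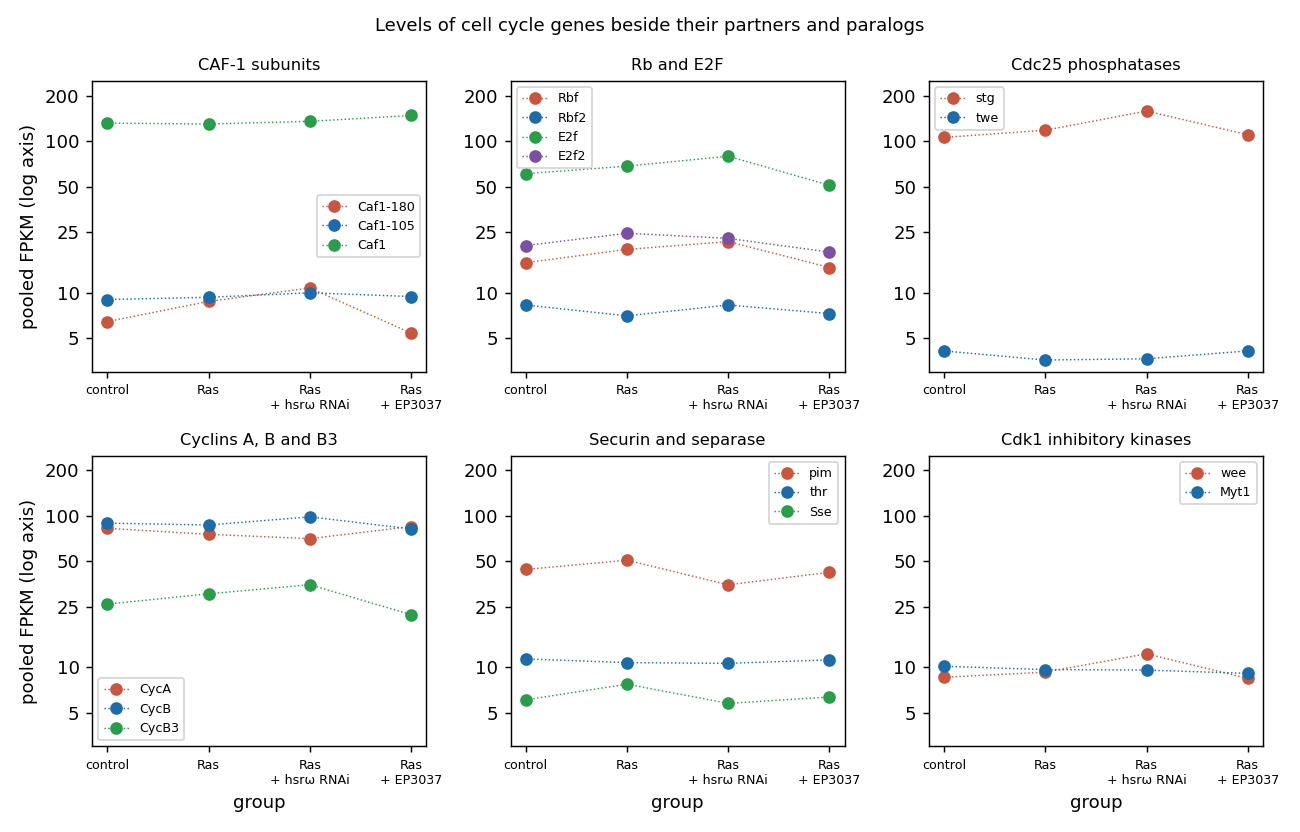
Pooled FPKM on a log axis of members beside partners and paralogs, with 1 point per gene and group and dotted lines that only join points of 1 gene. Caf1-180 falls to 5.40 FPKM in the EP3037 group while Caf1-105 is at 9.42, and Rbf, E2f, stg and CycB3 each have their highest point in the RNAi group.

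Among the G1/S genes, the D-type cyclin and its kinase stood lowest where CycE, dap and Rbf stood highest. CycD, which with Cdk4 promotes growth and the start of the cycle, was at 47.3, 42.5, 37.6 and 43.6 FPKM. Cdk4 was at 37.7, 37.9, 32.1 and 34.5 FPKM. Both were thus lowest in the RNAi group; the log2 change of CycD from the control was -0.33 (p = 0.0817, q = 0.971 in the authors' deposited table). CycE, the cyclin that brings cells into S phase, was at 24.7, 23.6, 25.8 and 25.3 FPKM, and its log2 changes lay between -0.07 and 0.13 with p-values from 0.501 to 0.883 and every q at 1.00 in the authors' deposited tables. The inhibitor of CycE with Cdk2, dap, was at 70.3, 60.9, 73.1 and 67.8 FPKM. Its log2 changes lay between -0.21 and 0.26, and its lowest p-value was 0.171 with q at 1.00 in the authors' deposited tables. CycE and its inhibitor both had their lowest level in the Ras group and their highest in the RNAi group.

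Rbf, the retinoblastoma protein that holds E2F inactive (chromosome X, 797090 to 801479, minus strand, protein-coding), had levels of 15.8 FPKM in the control, 19.3 with Ras, 21.7 with Ras and RNAi and 14.6 with Ras and EP3037. Its order of groups matched that of Caf1-180. Its log2 change was 0.46 from the control to the RNAi group (p = 0.0181, q = 0.492 in the authors' deposited table) and -0.57 from the RNAi to the EP3037 group (p = 0.00415, q = 0.208 in the authors' deposited table). Neither was called. Its activator partner E2f was at 61.0, 68.5, 79.6 and 51.1 FPKM, again highest in the RNAi and lowest in the EP3037 group. The log2 difference of E2f between these groups was -0.64 (p = 0.00265, q = 0.155 in the authors' deposited table) and was not called. The paralog Rbf2 was at 8.27, 7.02, 8.27 and 7.26 FPKM and the repressor E2f2 at 20.5, 24.7, 22.8 and 18.5 FPKM.

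Of the G2/M genes, stg (chromosome 3R, 29251826 to 29255800, minus strand, protein-coding), the Cdc25 phosphatase that limits entry into mitosis in disc cells, was at 106, 118, 158 and 110 FPKM. The RNAi group stood above the rest, which lay close together. The log2 change was 0.58 from the control to the RNAi group, with an interval of 0.18 to 0.98 (p = 0.00495, q = 0.230 in the authors' deposited table). It was 0.42 from the Ras to the RNAi group (p = 0.0420, q = 0.748 in the authors' deposited table) and -0.52 from the RNAi to the EP3037 group (p = 0.0102, q = 0.355 in the authors' deposited table). None of these was called, and between the control, Ras and EP3037 groups its log2 changes lay between -0.10 and 0.16 with q at 1.00 in the authors' deposited tables. The other Cdc25 gene, twe, which acts in male meiosis, was at 4.11, 3.58, 3.65 and 4.12 FPKM.

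The kinases that oppose Cdc25 had different orders of groups. The nuclear kinase gene wee was at 8.59, 9.28, 12.3 and 8.44 FPKM, and Myt1, which encodes a membrane-bound kinase with the same substrate, was at 10.1, 9.65, 9.58 and 9.11 FPKM. For wee the log2 change from the Ras to the RNAi group was 0.40 (p = 0.207, q = 1.00 in the authors' deposited table). Its interval, -0.22 to 1.03, is wide beside that of stg for the same pair, 0.02 to 0.83. Of the remaining brakes, rux, an inhibitor of CycA with Cdk1 needed for the G1 arrest in the eye disc, was at 8.50, 9.52, 7.15 and 8.78 FPKM. The pseudokinase gene trbl, which promotes destruction of the stg product, was at 28.3, 25.1, 27.9 and 24.8 FPKM. Lowest in the RNAi group was rux, where stg was highest, with a log2 change from the Ras group of -0.41 (p = 0.120, q = 1.00 in the authors' deposited table).

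The mitotic cyclins took different orders. CycA, which acts in S phase and at entry into mitosis, was at 82.9, 75.6, 70.8 and 85.0 FPKM, lowest in the RNAi group. CycB was at 89.6, 87.1, 98.6 and 82.1 FPKM, highest in the RNAi group. Their log2 changes lay between -0.23 and 0.26 for CycA and between -0.26 and 0.18 for CycB, with lowest p-values of 0.180 and 0.175 and every q at 1.00 in the authors' deposited tables. CycB3 (chromosome 3R, 24867934 to 24870816, minus strand, protein-coding), a cyclin that acts late in mitosis, was at 26.1, 30.6, 35.1 and 22.3 FPKM. The RNAi group was again highest and the EP3037 group lowest. Its log2 change from the RNAi to the EP3037 group was -0.66, with an interval of -1.05 to -0.27 (p = 0.001, q = 0.0780 in the authors' deposited table). This change missed the threshold over all 6 tables and passed it when p-values were adjusted within that pair alone (q = 0.0473). The change from the control to the RNAi group was 0.43 (p = 0.0289, q = 0.623 in the authors' deposited table) and from the Ras to the EP3037 group -0.46 (p = 0.027, q = 0.599 in the authors' deposited table).

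Genes of mitotic progression and exit spanned less than the median member, with pim as the exception. The mitotic kinase gene polo, with stg the most abundant of the 40, was at 119, 112, 115 and 128 FPKM. The Cdc20 gene fzy, which directs the anaphase-promoting complex in mitosis, was at 43.4, 40.3, 43.2 and 46.5 FPKM. Its log2 changes lay between -0.11 and 0.21, with a lowest p-value of 0.518 and q at 1.00 in the authors' deposited tables, and polo, like fzy, was highest in the EP3037 group. The Cdh1 gene fzr, which keeps the same complex active in G1, was at 16.7, 15.7, 18.4 and 16.9 FPKM. The separase partner thr was at 11.4, 10.7, 10.6 and 11.2 FPKM, the narrowest of all 40 genes with a log2 range of 0.10. By contrast pim, which encodes securin, the inhibitor of separase (chromosome 2L, 10362989 to 10364092, plus strand, protein-coding), was at 44.3, 51.0, 35.1 and 42.4 FPKM. It stood highest in the Ras group and lowest in the RNAi group, a log2 change of -0.54 (p = 0.0135, q = 0.420 in the authors' deposited table) that was not called. Separase itself, Sse, was at 6.09, 7.73, 5.77 and 6.36 FPKM, likewise highest in the Ras group and lowest in the RNAi group.

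The 4 spindle checkpoint genes of the list, which hold back anaphase until chromosomes are attached, varied least among the 4 phases. BubR1, the kinase-like inhibitor of Cdc20, was at 33.5, 30.4, 31.6 and 31.7 FPKM. Bub1, a kinetochore kinase, was at 12.5, 11.8, 12.7 and 11.3 FPKM. Bub3, the partner of both at the kinetochore, was at 73.2, 77.1, 80.4 and 75.9 FPKM. Mad1, which recruits Mad2 to unattached kinetochores, was at 29.5, 29.6, 27.1 and 30.4 FPKM. Each of the 4 groups was highest for at most 2 of these genes, and the largest distance between any 2 groups was a log2 change of 0.17, in Bub1. Among the 16 other spindle checkpoint genes, compared further on, log2 changes from the Ras to the RNAi group ran from -0.52 to 0.65.

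The comparison of the Ras group with the control asks what activated Ras does to these genes. None of the 40 was called by Cuffdiff, against 0.773% of all 10996 tested genes, and none had an unadjusted p at or under 0.05, against 4.63%. The highest log2 changes were those of Caf1-180 (0.44, given above) and of Orc2, with 0.31 (p = 0.762, q = 1.00 in the authors' deposited table). The lowest were -0.25 for Mcm2 (p = 0.230, q = 1.00 in the authors' deposited table) and -0.22 for Mcm10 (p = 0.368, q = 1.00 in the authors' deposited table). The median log2 change of the members was -0.05 and 17 of 40 lay above 0, beside 0.05 and 58% of all tested genes. By phase the medians were -0.01 for replication, -0.07 for G1/S, -0.08 for G2/M and -0.04 for the checkpoint.

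The remaining main comparisons ask what the constructs directed at hsrω add to activated Ras. From the Ras to the RNAi group none of the 40 was called by Cuffdiff, against 0.743% of 10897 tested genes, and 2 had an unadjusted p at or under 0.05, stg with a higher and pim with a lower level, against 5.20% of all genes. The highest log2 changes were those of stg and wee, and the lowest those of pim and rux, all given above. The members' median log2 change was 0.12 and 30 of 40 (75%) lay above 0, beside -0.02 and 46.6% of all tested genes. Of the 17 replication genes, 15 lay above 0, with a median of 0.13, beside 22 of 33 other replication genes with a median of 0.03. Medians were 0.13 for G1/S, 0.07 for G2/M and 0.06 for the checkpoint.

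From the Ras to the EP3037 group none of the 40 was called by Cuffdiff, against 0.786% of 11062 tested genes, and Caf1-180 and CycB3, both lower, had an unadjusted p at or under 0.05, against 5.89% of all genes in either direction and 4.16% lower. The highest log2 changes were 0.33 for Mcm2 (p = 0.107, q = 1.00 in the authors' deposited table) and 0.27 for RnrS, given above. The members' median log2 change was 0.05 with 23 of 40 above 0, beside -0.05 and 43.1% of all tested genes. Replication genes had a median of 0.14, with 12 of 17 above 0, although Caf1-180, with the lowest log2 change, was also among them. Medians of the other phases were 0.04 for G1/S, -0.05 for G2/M and 0.01 for the checkpoint. These comparisons share the Ras group, as does the comparison of Ras with the control, so a low level there enters all 3 of them.

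Between the RNAi and the EP3037 group Caf1-180 was the 1 gene of 40 that was called, with a lower level in the EP3037 group, against 1.74% of 10981 tested genes called in either direction and 1.52% called lower. The share of members, 1 in 40, was near this background. At an unadjusted p at or under 0.05 stood 4 members, Caf1-180, CycB3, Rbf and stg, all lower in the EP3037 group, against 9.43% of all genes in either direction and 6.37% lower. The highest log2 changes were 0.34 for Orc6 (p = 0.373, q = 1.00 in the authors' deposited table) and 0.30 for rux (p = 0.271, q = 1.00 in the authors' deposited table). The members' median log2 change was -0.00 with 20 of 40 above 0, beside 0.02 and 52.3% of all tested genes. Medians by phase were 0.03 for replication, -0.03 for G1/S, 0.00 for G2/M and -0.04 for the checkpoint.

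**Figure D3:**
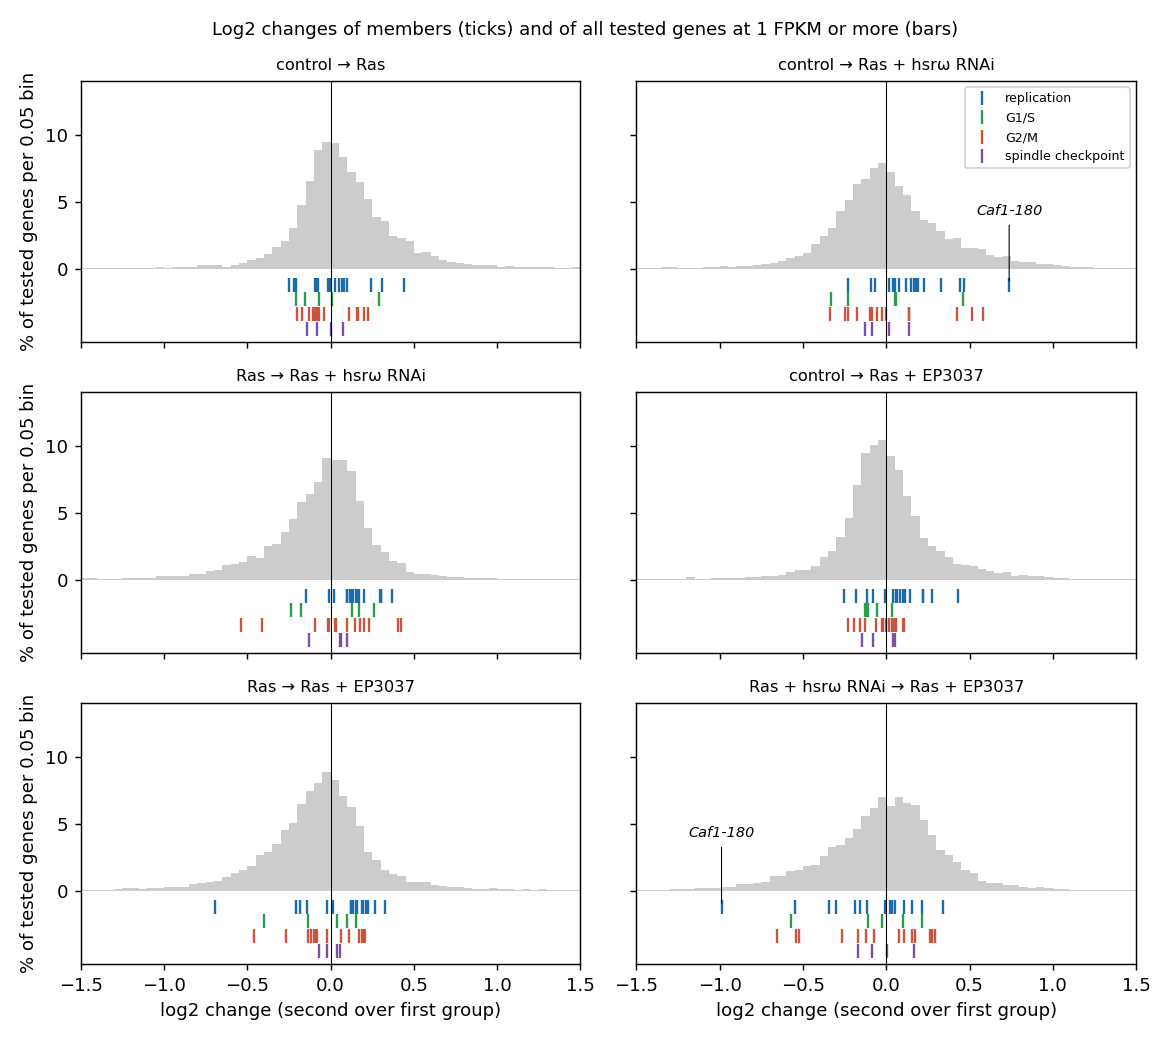
Log2 changes of the 40 genes (coloured ticks, 1 row per phase) below the distribution over all tested genes at 1 FPKM or more (grey bars, percent per bin), for the 6 pairs of groups. Caf1-180 is labelled where it was called, at 0.74 and -0.99, and all other ticks lie between -0.69 and 0.58.

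The RNAi and EP3037 groups were also set against the control, so that activated Ras and the hsrω construct differ together. From the control to the RNAi group Caf1-180 rose, the 1 gene of 40 called, against 1.72% of 10952 tested genes in either direction and 1.11% called higher. Caf1-180, stg, Rbf and CycB3, all higher, had an unadjusted p at or under 0.05, against 8.74% of all genes in either direction and 5.72% higher. The members' median was 0.06, with 14 of 17 replication genes above 0 and 9 of 14 G2/M genes below 0, beside -0.00 over all tested genes. From the control to the EP3037 group none of the 40 was called by Cuffdiff, against 0.643% of 11039 tested genes, and none had an unadjusted p at or under 0.05, against 3.52%. There the log2 changes ran from -0.25 in Caf1-180 to 0.43 in Orc2, whose p-value was 0.675 in the authors' deposited table.

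In the order of the groups, 18 of the 40 genes (45%) were highest with RNAi and 13 (32.5%) with EP3037, beside 29.4% and 21.2% of all genes at 1 FPKM or more in every group. The Ras group was highest for 3 genes (7.5%), Cdk4, rux and pim, beside 27% of all genes, and lowest for 14 (35%), beside 15.2%. When each group was scaled by its median gene these counts were 16 in the RNAi group, 17 in the EP3037 group and 2 in the Ras group, and 22 genes were lowest in the Ras group. Of all genes, 28.6%, 31.8% and 16.9% were then highest in these 3 groups and 27.2% lowest in the Ras group, so the order of the RNAi and EP3037 groups depends on the scaling.

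Other genes of the cell cycle machinery were compared in the same way. Of 125 listed, 124 were found and tested, and Cuffdiff called none of them in any pair. At an unadjusted p at or under 0.05 there were 0 from control to Ras, 5 from control to RNAi, 3 from Ras to RNAi, 3 from control to EP3037, 1 from Ras to EP3037 and 5 from RNAi to EP3037. The shares of all tested genes at that p were 4.63%, 8.74%, 5.20%, 3.52%, 5.89% and 9.43%, in the same sequence of pairs. Their median log2 range over the 4 groups was 0.21, and 94.4% of them stayed within 0.5. From the Ras group, rod, a kinetochore protein of the spindle checkpoint, had log2 changes of 0.65 to the RNAi group (14.5 to 22.8 FPKM, p = 0.00095, q = 0.0755 in the authors' deposited table) and 0.60 to the EP3037 group (22.1 FPKM, p = 0.0032, q = 0.175 in the authors' deposited table). It was at 15.4 FPKM in the control, close to the Ras group and below the RNAi and EP3037 groups. The mitotic kinase gene cdc2, which encodes Cdk1, was at 75.0, 91.5, 61.7 and 85.6 FPKM, and its log2 change from the Ras to the RNAi group was -0.57 (p = 0.0061, q = 0.264 in the authors' deposited table). Like pim, it was highest in the Ras group and lowest in the RNAi group. The smallest p-values of the other main pairs belonged to Ndc80 (0.103) and cana (0.125), both kinetochore genes, from control to Ras, and beside rod to gwl (0.0611), the Greatwall kinase, from Ras to EP3037, in the authors' deposited tables. From RNAi to EP3037 they belonged to E2f, given above, and to the cohesin gene Cap (-0.47, p = 0.0132, q = 0.415 in the authors' deposited table).

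Log2 changes of all genes varied with transcript length. From the RNAi to the EP3037 group their median ran from 0.17 in genes under 1000 nt to -0.25 in genes of 4000 nt or more. From the control to the RNAi group it ran from -0.12 to 0.19. Pairs without the RNAi group varied with length too. From control to Ras the medians were 0.17 under 1000 nt, -0.01 from 2000 to 4000 nt and 0.10 at 4000 nt or more. In these classes they were -0.14, -0.01 and -0.15 from Ras to EP3037, and 0.04, -0.03 and -0.06 from control to EP3037. Caf1-180, with 4043 nt, is among the 4 members in the longest class. With the running median over length subtracted, its log2 changes were 0.65 of the 0.74 from the control to the RNAi group and -0.87 of the -0.99 from the RNAi to the EP3037 group. The other 3 members of 4000 nt or more, thr, BubR1 and Bub1, had a log2 change between -0.17 and 0.08 from the RNAi to the EP3037 group. For pim, of 978 nt, the change from the Ras to the RNAi group was -0.36 after the same subtraction.

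**Figure D4:**
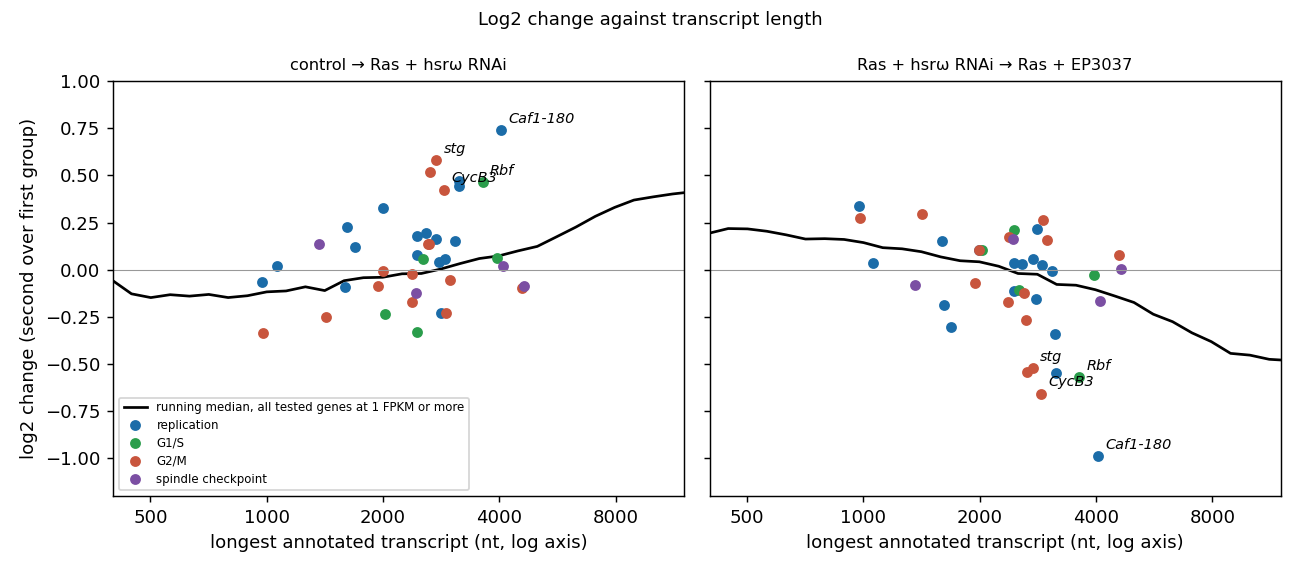
Log2 change against the longest annotated transcript (log axis) for the 40 genes, coloured by phase, with the running median of all tested genes at 1 FPKM or more (black line), from control to RNAi and from RNAi to EP3037. Genes with a deposited p at or under 0.05 are labelled; Caf1-180 lies at 0.74 and -0.99, on the same side of 0 as the line at its length.

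Marker levels of other tissues also differed between the groups, and their part in the changes of cell cycle genes was not tested. The 9 haemocyte markers summed to 95.2, 85.3, 185 and 119 FPKM. Of these, 3 were called higher and 1 lower from the control to the RNAi group, 6 higher from Ras to RNAi and 2 lower from the RNAi to the EP3037 group. In addition 1 was called lower from control to Ras and 1 higher from Ras to EP3037. The 5 fat body markers summed to 46.3, 15.9, 8.02 and 20.0 FPKM. From the control, 4 were called lower to the Ras group, all 5 to the RNAi group and 3 to the EP3037 group. From Ras to RNAi 1 was called lower, and from the RNAi to the EP3037 group 3 were called higher. The 5 ring gland markers summed to 112, 145, 58.8 and 55.0 FPKM, with 2 called lower from the control to the RNAi group, 3 from Ras to RNAi, 2 from the control to the EP3037 group and 3 from Ras to EP3037. Brain neuroblast markers, a dividing cell type, summed to 34.5, 37.9, 42.0 and 32.9 FPKM over 5 genes, and none of the 4 tested was called. Most of that sum came from insc, whose row is shared with sktl (26.0, 29.6, 32.2 and 23.7 FPKM), and the other 4 summed to 8.47, 8.27, 9.83 and 9.16 FPKM. Salivary gland markers (5 genes, 7.79 to 23.4 FPKM), glia markers (4 genes, 27.6 to 34.5 FPKM) and antennal disc markers (5 genes, 428 to 468 FPKM) had no called member in any pair. Most of the antennal disc sum came from hth alone (298, 318, 314 and 300 FPKM), so that sum does not measure the amount of antennal tissue.

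How small a change could be seen varied between the genes. The median margin of a member's 95% interval, from its centre to its end, was 0.40 on the log2 scale, beside 0.51 over all genes at 1 FPKM or more in both groups, and was at most 0.6 for 32 of the 40 genes. It was over 1 for dup (1.27), twe (1.49) and Orc2 (2.00), so that for these 3 genes a log2 change of 1 lies within the margin. The 8 members above 0.6, which also include fzy, wee, Orc1, Orc6 and Orc5, all overlap another row of the tables, with a median margin of 0.50 over the 17 members that do and 0.39 over the 23 that do not. Apart from fzy, these 8 also had low levels, at most 12.3 FPKM in any group. Bub3, at 73.2 to 80.4 FPKM, overlaps another row with a margin of 0.38, but so does thr, at 10.6 to 11.4 FPKM, with 0.41. The parts of level and overlap in the margins were not tested. Rows that overlap, and the 18 members with an annotated gene on the opposite strand, can share reads, since any use of strand by the authors' counting is not stated in the sources.

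**Figure D5:**
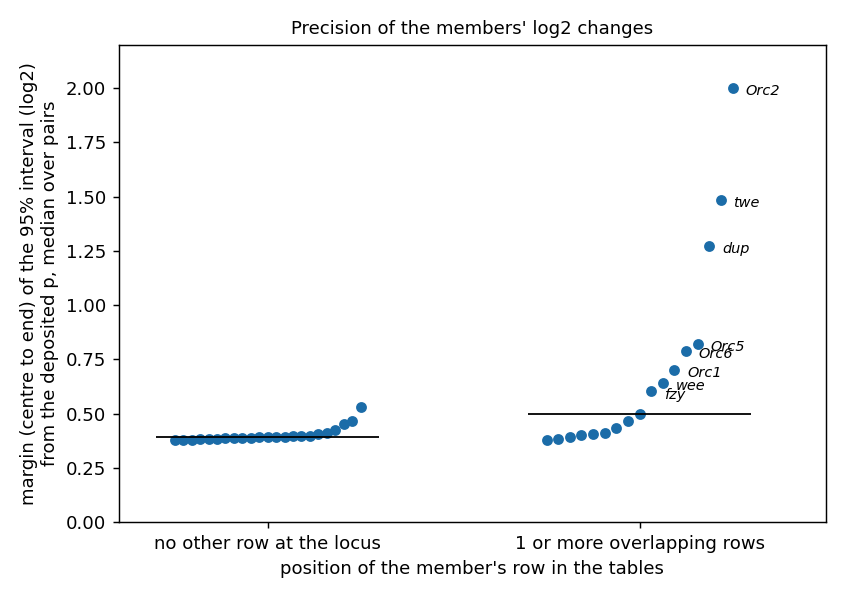
Margin (centre to end) of the 95% interval of the log2 change (median over the pairs) for each of the 40 genes, split by whether another row of the tables overlaps the gene; horizontal lines are medians, 0.39 and 0.50. The 8 labelled genes above 0.6 all lie in the overlapping set, up to 2.00 for Orc2, and all but fzy were at 12.3 FPKM or less in every group.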

How the data were processed

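Total RNA libraries, stranded and depleted of ribosomal RNA, were run as paired reads of 50 bp, 12 samples to a lane and 2 lanes for each sample, per the labels' protocols. TopHat, Bowtie, Cufflinks, Cuffdiff 2.1.1 and dm6 are named in the submitters' processing notes. Other versions, the annotation, filters and use of strand were not given in the sources used here. In all, the authors deposited 6 tables, 1 per pair of groups, with 1 pooled FPKM per gene and group. Each row also holds the authors' p-value and q-value, per the file headers. The deposited q-value was that of a Benjamini-Hochberg adjustment across the 65927 tests of the 6 tables to within 1.56e-05. Input labels in the tables list 4 inputs for the 3 samples of the RNAi group, with 1 sample listed as 2 inputs. How Cuffdiff treated these 2 inputs is not known, and every p-value of a pair with the RNAi group may depend on it.

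From these values the log2 ratio of the pooled FPKM was computed with Python 3.11.15, pandas 2.3.3, NumPy 2.4.6 and SciPy 1.17.1. The standard error was the log2 change divided by the normal quantile of its deposited p (none for p above 0.9), and a 95% interval followed. The smallest deposited p was 5e-05, so a standard error at that p is an upper value. This step and the retests below were tested on simulated data. Gene positions are those of the tables on dm6, and strand, biotype and longest transcript are from Ensembl release 115. A transcript length was found for 97.9% of 15904 rows. Depth is unknown from FPKM, so no interval or floor from counts was computed.

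Alternatives were a q of 0.01, an unadjusted p of 0.05, adjustment within each pair, a minimum of 1 FPKM, pseudocounts of 0.1 and 1, single-gene rows, centring on the median gene, and subtraction of the running median over length (501 genes) with a retest. The members, the lists of other cell cycle genes and markers, and the tests were chosen with earlier results of these data known. Levels are printed for every member, test values for members with p at or under 0.05, for the 2 highest and 2 lowest log2 changes of each of 4 main pairs, and for stg, CycE, CycA, CycB, dap, RnrS and fzy. Other cell cycle genes are named by the 2 smallest p-values in each main pair, and E2f2, Rbf2, Sse, Caf1 and Caf1-105 were added as partners after values were seen. Promoter sequences were not used here.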

Additional observations from a re-analysis of the deposited data

How the results depend on the processing

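Of the members, Caf1-180 was the sole call in either pair. With the length trend subtracted its log2 changes were 0.65 and -0.87, and neither passed the retest. At that setting 0 members were called higher from control to RNAi and 0 lower from RNAi to EP3037. Standard errors at the smallest deposited p are upper values and can raise the q-values of this retest, so it cannot show that either call is lost. At a q of 0.01, 0 members were higher from control to RNAi. Adjusted within each pair, 2 were lower from RNAi to EP3037, Caf1-180 and CycB3. At an unadjusted p of 0.05, 4 were higher from control to RNAi, 1 higher and 1 lower from Ras to RNAi, 2 lower from Ras to EP3037 and 4 lower from RNAi to EP3037. Of the other cell cycle genes, 2 were then higher and 3 lower from control to RNAi, 1 and 2 from Ras to RNAi, 1 and 2 from control to EP3037, 1 higher from Ras to EP3037, and 1 and 4 from RNAi to EP3037, and with the length trend subtracted rod alone was higher from Ras to EP3037 (1 gene, q = 0.0348). Of the 240 changes of members, 12 in 11 genes turned direction when centred and 18 in 14 genes with the length trend subtracted, all with p at or over 0.702 in the authors' deposited tables. Among them were CycE with the length trend subtracted (0.0747 from RNAi to EP3037, -0.0125 from control to RNAi) and fzy from control to RNAi (0.00545 when centred, 0.0358 with the length trend subtracted); the cause was not tested. Medians of the members and of their phases moved by less than 0.1 log2, but some small ones turned direction. With the length trend subtracted, the RNAi to EP3037 median went from -0.03 to 0.06 for G1/S and from -0.04 to 0.06 for the spindle checkpoint. For G1/S from control to RNAi it went from 0.06 to -0.01. When centred, the G2/M median from Ras to EP3037 went from -0.05 to 0.00. The median of the DNA damage checkpoint genes from RNAi to EP3037 moved from -0.01 to 0.10 with the length trend subtracted. With each group scaled by its median gene, members highest in the Ras group went from 3 to 2 and those lowest there from 14 to 22, and other cell cycle genes highest there from 22 to 11.

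Over all genes, the counts higher and lower at q 0.05 were 46 and 39 from control to Ras, 122 and 66 from control to RNAi, 19 and 62 from Ras to RNAi, 28 and 43 from control to EP3037, 20 and 67 from Ras to EP3037, and 24 and 167 from RNAi to EP3037. At an unadjusted p of 0.05 they were 371 and 138, 627 and 330, 147 and 420, 201 and 188, 191 and 460, and 337 and 699. With the length trend subtracted they were 21 and 38, 55 and 51, 19 and 20, 26 and 38, 21 and 33, and 29 and 47. These retested counts can be too low, since standard errors at the smallest deposited p are upper values. A q of 0.01 gave 27 higher from control to Ras, 74 higher from control to RNAi, 40 lower from Ras to RNAi, 17 and 24 from control to EP3037, 9 and 37 from Ras to EP3037, and 15 and 87 from RNAi to EP3037. A minimum of 1 FPKM in both groups gave 25 lower from control to Ras, 26 lower from control to EP3037 and 12 higher from Ras to EP3037.

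No paired analysis was possible because the deposited values are pooled over the samples of a group, and for the same reason leaving out each replicate in turn was not run. The search for promoter motifs was not run. Depth is unknown.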

Other observations

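Psf1, a subunit of the GINS complex that joins the Mcm helicase when replication starts, was singled out after its values were seen. It was at 12.7 FPKM in the control, 9.99 with Ras, 7.48 with Ras and RNAi and 6.65 with Ras and EP3037, an order that none of the helicase ring subunits shared. Its log2 change from the control was -0.77 to the RNAi group (p = 0.0173, q = 0.481 in the authors' deposited table) and -0.93 to the EP3037 group (p = 0.00925, q = 0.338 in the authors' deposited table), and neither passed the test. Psf1 has a longest transcript of 692 nt.

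The 11 DNA damage checkpoint genes among the other cell cycle genes had a median log2 change of -0.05 from the Ras to the RNAi group, with 3 above 0. This median was near that of all tested genes, -0.02 with 46.6% above 0. In that pair 15 of the 17 replication genes of the report lay above 0 with a median of 0.13, and 22 of 33 other replication genes with a median of 0.03. None of the 11 was called by Cuffdiff in that pair, and the difference between the lists was not tested.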
